A study of Homo sapiens with 9 samples.

Results

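The metallothionein gene cluster on human chromosome 16 was examined for gains of EGR1 binding when the BRAF V600E oncoprotein was induced in fibroblasts, with and without the glucocorticoid clobetasol. The sites were selected by position from the deposited lists of EGR1 ChIP-seq peaks: every peak whose summit lay at chr16:56590000-56740000 in the hg19 build, a window of 150 kb that holds the cluster. Of the 16285 peaks listed after induction 5 lay there, and of the 12340 listed after induction with clobetasol 2 did, so that 7 of 28625 peaks in all are described. The region was picked for the peaks it carries in both lists, and the presence and strength of those peaks are therefore given as a description, with no test.

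Metallothioneins are small, cysteine-rich proteins that bind zinc, copper and cadmium and buffer the supply of zinc in the cell. MT2A and the MT1 genes are made in many cell types, while MT3 is best known from brain and MT4 from stratified epithelia. Metals act on MT2A and the MT1 genes through the transcription factor MTF1, which binds short metal response elements near their starts. Glucocorticoids are a classical inducer of MT2A. EGR1 is an immediate early zinc finger factor switched on by the RAF-MEK-ERK cascade. It binds GC-rich DNA.

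The cells were BJ-hTert-B-RAF-V600E, human fibroblasts immortalised with telomerase that carry a doxycycline-inducible BRAF V600E. There were 3 groups of 3 libraries, all made with an antibody to EGR1 after 24 h: proliferating cells given ethanol and DMSO, cells given doxycycline at 1000 ng/mL and DMSO, and cells given the same doxycycline with clobetasol at 2 nM. All 3 groups carry the inducible oncogene. Sample titles name DMSO in the clobetasol group as well, and the library names of proliferating replicates 2 and 3 point to the same sample, so the number of distinct samples in the control pool is not settled by the labels.

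The authors pooled the 3 libraries of each treated group and called peaks against the pooled proliferating libraries. A peak in a list thus marks higher signal in that treated pool than in proliferating cells, and each value below comes from 1 pool with no replicate spread. The fold given for a peak is the authors' ratio, at the summit, of fragments in the treated pool to the level the proliferating pool gives locally, and q is their adjusted p at the summit. The number of treated fragments over each summit was recovered from the deposited fold and p. All 7 window peaks gave whole numbers within 0.05. The clobetasol pool was deeper than the induced pool by a factor of 1.21, and its fragments are also given divided by that factor. Total reads per library were not in the files used here. Intervals of 95% cover counting error only.

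In the RefSeq gene order, the cluster runs MT4, MT3, MT2A, MT1L, MT1E, MT1M, MT1JP, MT1A, MT1DP, MT1CP, MT1B, MT1F, MT1G, MT1H, MT1IP and MT1X. These are 16 metallothionein entries, of which 11 are protein coding and 5 are pseudogenes. The gene table is of GRCh38 and the peaks are of hg19, so no peak was assigned to one of these genes and whether a peak covers a start site or lies between genes is not given.

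Promoter sequence in the RefSeq table (GRCh38.p14) matched 2 of the 8 member genes, MT2A and MT1X. Their 250 bases before the start are shown because they carry copies of the metal response element core, and because they allow a search for the EGR1 site. Capitals mark the metal response element cores TGCACNC and TGCGCNC on either strand. MT2A is at chr16:56608334-56608583 and MT1X at chr16:56682220-56682469, both on the plus strand of GRCh38, and these positions cannot be set beside the hg19 peaks.

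MT2A: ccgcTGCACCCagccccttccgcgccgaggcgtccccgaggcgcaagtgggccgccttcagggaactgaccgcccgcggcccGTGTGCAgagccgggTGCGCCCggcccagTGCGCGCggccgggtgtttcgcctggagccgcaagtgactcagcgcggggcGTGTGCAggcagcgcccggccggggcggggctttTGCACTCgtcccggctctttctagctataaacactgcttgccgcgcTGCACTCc

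MT1X: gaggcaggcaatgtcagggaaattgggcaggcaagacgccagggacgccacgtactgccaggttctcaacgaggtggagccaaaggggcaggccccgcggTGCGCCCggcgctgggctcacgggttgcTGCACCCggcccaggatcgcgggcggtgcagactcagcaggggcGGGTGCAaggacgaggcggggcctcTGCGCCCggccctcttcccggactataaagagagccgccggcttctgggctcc

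The MT2A promoter held 7 metal cores and that of MT1X held 4, with no bases shared between cores. Of all 35116 promoters of the same length, 24.8% held at least 1 such core, 0.37% held at least 4 and 0.0313% held at least 7. The table also held MT1H, MT4 and MT1B, with 8 cores in MT1H and 3 each in MT4 and MT1B. The EGR1 core GCGNGGGCG was found on neither strand of any of the 5 promoters, and it was found in 8.41% of all promoters. The GC box GGGCGG occurred 2 times each in MT2A and MT1X (42.6% of all promoters held it), and one of those of MT1X shared bases with a metal core. MT2A and MT1B also held 1 AP-1 site each, TGACTCA on either strand (4.2% of all promoters). The glucocorticoid receptor half-site AGAACA was in none of the 5 (12.4% of all promoters). A match or its absence describes the letters of these windows only.

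Induction of BRAF V600E gave 5 listed gains in the window, numbered I1 to I5 by position. The first 3 lay within 3096 bp of each other between summits, and I4 and I5 stood alone further along. Folds over proliferating cells ran from 2.85 to 5.31 with a median of 3.5, against a median of 3.64 over the whole list. No gain was listed before I1, whose summit lay 51278 bp into the window. The call numbers in the deposited names rise along each chromosome in both lists, and that of I1 directly follows that of the last peak before the window, 87301 bp upstream, with none skipped.

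I1, at chr16:56641076-56641467, was the strongest. It held 136 fragments in the induced pool (exact Poisson interval 114 to 161) on a control level of 24.8, for a fold of 5.31 and a −log10 q of 50.02. Only 9.35% of induced peaks had a higher −log10 q, and the same percentage had a higher fold. The proliferating pool itself held 45 fragments there.

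I2, at chr16:56642044-56642535, began 576 bp after I1 ended. It had 46 fragments (33.7 to 61.4) on a control level of 12.4, a fold of 3.50 and a −log10 q of 10.1. It was the widest induced peak of the window at 492 bp.

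I3, at chr16:56644247-56644530, lay another 1711 bp on. It had 107 fragments (87.7 to 129) on the highest control level of the window, 37.0, or 5.70 times the lowest of the list. Its fold of 2.85 was thus the lowest of the 5 although its pileup was second only to that of I1. The proliferating pool held 67 fragments at this summit, and with no input library EGR1 binding before induction could not be told from other background.

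I4, at chr16:56677112-56677405, and I5, at chr16:56735856-56736154, were weak gains on low control levels. I4 held 30 fragments (20.2 to 42.8) on a level of 8.07, and I5 held 28 (18.6 to 40.5) on a level of 7.07. Their folds of 3.42 and 3.59 were near the list's median, but 90.4% and 89.9% of induced peaks had a higher −log10 q. I5 lay 3971 bp inside the end of the window. The nearest induced peaks left outside had summits 36441 bp before the window, with a fold of 3.66 and 41 fragments, and 23962 bp after it, with a fold of 3.75 and 104 fragments.

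**Figure D1:**
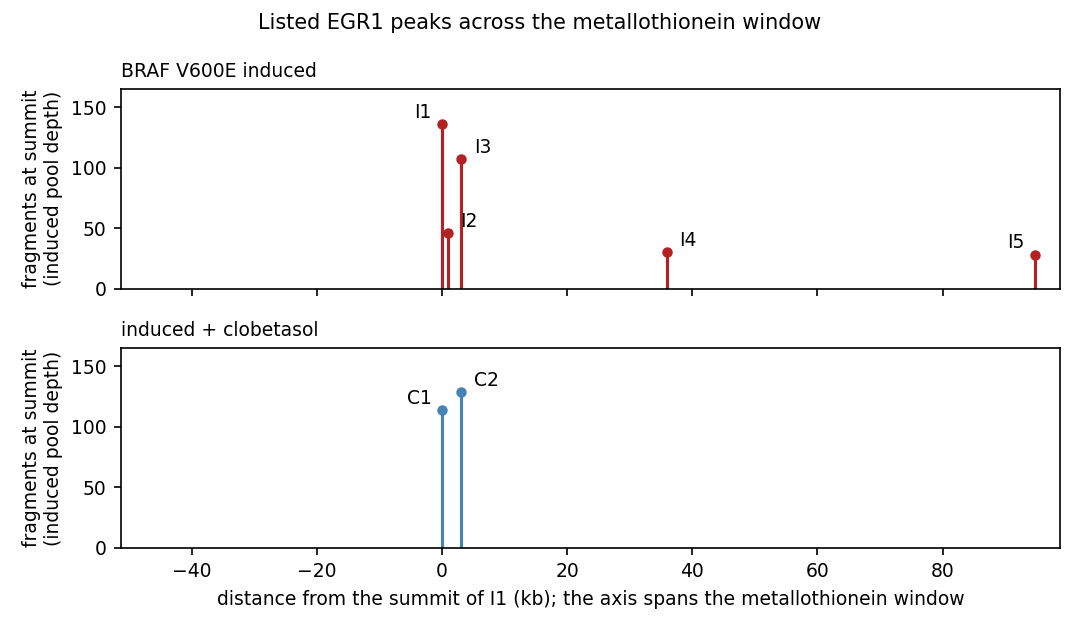
Fragments at the summit of each listed peak (vertical axis, scaled to the depth of the induced pool) against its distance in kb from the summit of I1 (horizontal axis, spanning the whole window), for the induced pool (top) and the pool with clobetasol (bottom). Listed peaks crowd into 1 short stretch in both pools (3096 bp between the summits of I1 and I3), and I4 and I5 have no counterpart with clobetasol.

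With clobetasol, 2 peaks were listed in the window, C1 and C2, and both overlapped induced peaks. Of the 5 induced peaks 3 overlapped one of them by at least 1 bp, against 64.0% of induced peaks over the whole list. Of all clobetasol peaks 86.4% overlapped an induced peak. The window thus had fewer peaks with clobetasol but more bases under them: 2952 bp, against 1761 bp after induction alone.

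C1, at chr16:56641101-56641495, matched I1 closely. The summits were 1 bp apart, the widths were 395 and 392 bp, and 367 bp were common to both. Its fold was 4.59, with a −log10 q of 43.6.

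C2, at chr16:56642035-56644591, took in both I2 and I3 and the 1711 bp between them. It began 9 bp before I2 and ended 61 bp after I3, for a width of 2557 bp, whereas I2 and I3 together measured 776 bp. Its summit lay 3 bp from that of I3 and 2129 bp from that of I2. The authors' fold at this summit was 3.34, with a −log10 q of 32.9. The list gives 1 summit per peak, so the level with clobetasol over I2, or between I2 and I3, is not known.

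**Figure D2:**
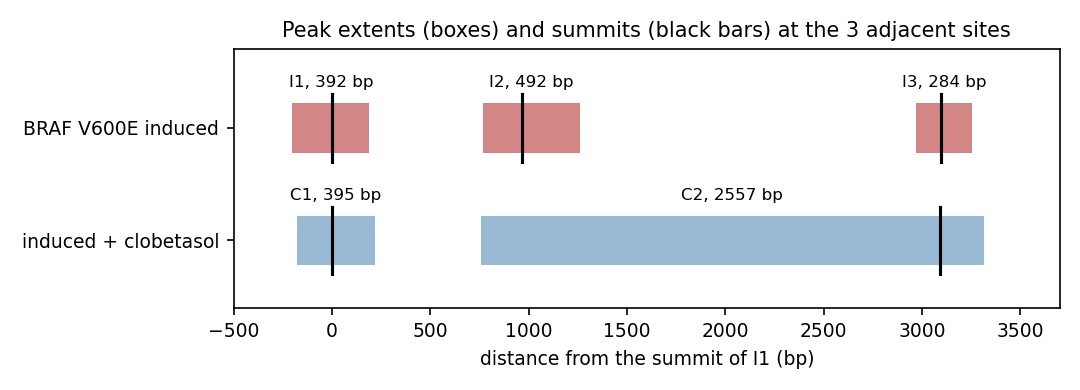
Extent (boxes, with the width in bp) and summit (black bars) of the listed peaks around I1, by distance in bp from the summit of I1. C2 spans I2, I3 and the stretch between them, and its summit falls on that of I3.

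A single clobetasol peak over separate induced peaks was rare. Of 12340 clobetasol peaks 13 overlapped 2 or more induced peaks (0.105%), while 238 of 16285 induced peaks (1.46%) overlapped 2 or more clobetasol peaks. C2 was the fifth widest of its list, in which the median width was 339 bp (interquartile range 277 to 453). Of the 4 wider peaks 2 were on mitochondrial DNA, and each of those overlapped 2 induced peaks, as C2 did. On chromosomes 1 to 22 and X, 2 were wider than C2, at chr7:100772315-100778892 and chr1:150539602-150545153, and each of these overlapped 1 induced peak. Induced peaks were in general the broader, with a median of 423 bp (interquartile range 316 to 645). Those of the window were narrower, with a median of 299 bp, and I3, I4 and I5 lay below the lower quartile. In the whole induced list, 19 peaks were at least as wide as C2.

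Each overlapping peak was next matched to the one of nearest summit, which gave 10417 matched pairs in all and 2 in the window, I1 with C1 and I3 with C2. The clobetasol peak was the wider in both window pairs, and in 20.6% of all pairs. The width ratio of C2 to I3, 9.0, was number 3 in rank among all pairs, against a median of 0.845. This ratio sets the whole width of C2, which also covered I2 and the stretch between, against I3 alone. Summits of the window pairs were 1 and 3 bp apart, against a median of 10 bp over all pairs.

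**Figure D3:**
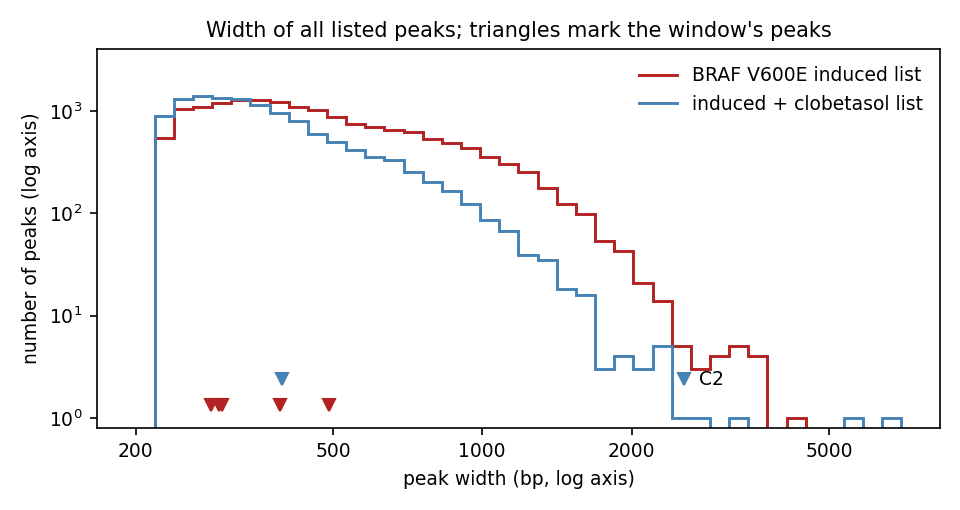
Number of peaks (vertical log axis) by width in bp (horizontal log axis) in the induced list (red line) and the clobetasol list (blue line), with triangles at the widths of the window's peaks in the same colours. C2, at 2557 bp, lies in the far tail of its list, and the other 6 run from 284 to 492 bp.

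At equal depth, the clobetasol pool had fewer fragments than the induced pool at I1 and more at I3, within counting error of equality at both. At I1 the induced pool had 136 fragments and the clobetasol pool 139, or 114 at equal depth. The ratio was 0.841 (exact binomial interval 0.659 to 1.07). At I3 the induced pool had 107 and the clobetasol pool 157 at C2, or 129 at equal depth, a ratio of 1.21 (0.939 to 1.56). Both intervals include 1. The median ratio of the 2 pairs was 1.02.

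Over all pairs the median ratio was 0.799 (interquartile range 0.707 to 0.91), and 87.5% of pairs were below 1. Beside that general shift, I1 was at 1.05 times and I3 at 1.51 times the median ratio. The interval at I3 lay above the median of all pairs, and that at I1 included it. Only 231 pairs (2.22%) had a higher ratio than I3. Intervals lay below 1 at 35.6% of all pairs and above 1 at 0.538%, and at neither window pair. These ratios set 1 pool against 1 pool, and the spread between the 3 libraries of a group is not in the files used here.

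The level in proliferating cells was nearly the same at the matched summits, at 45 and 44 fragments for I1 and C1 and 67 and 69 for I3 and C2. The excess over that level, at the depth of the induced pool, was 111 fragments at I1 and 90.2 at C1, a ratio of 0.811. At I3 it was 70.0 and at C2 91.2, a ratio of 1.30, against a median of 0.735 over all pairs. By excess, I1 exceeded I3 after induction, and the 2 sites were level with clobetasol. No interval was computed for an excess. The fragment ratios were each set against equality, and the 2 sites were not compared with each other. Whether their order changed was therefore not tested, and no change is read from these values. The site matched outside the window, 23962 bp past its end, went from 104 to 105 fragments, or 86.4 at equal depth, a ratio of 0.831 (0.628 to 1.10).

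**Figure D4:**
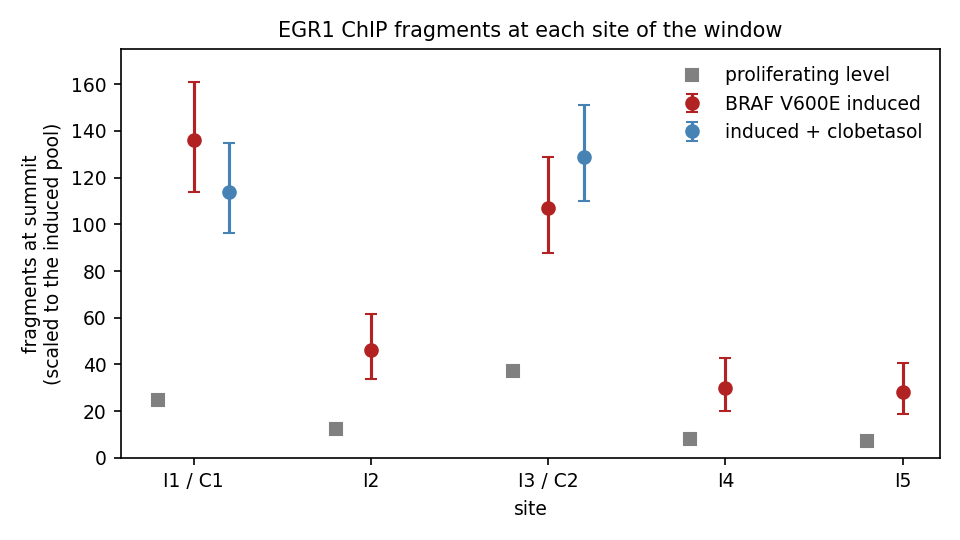
Fragments at the summit of each window site (vertical axis, scaled to the depth of the induced pool) in the induced pool (red) and the clobetasol pool (blue), with exact 95% Poisson intervals, and the proliferating level (grey squares). Red and blue intervals overlap at I1 and at I3, and the clobetasol list gives no summit at I2, I4 and I5.

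**Figure D5:**
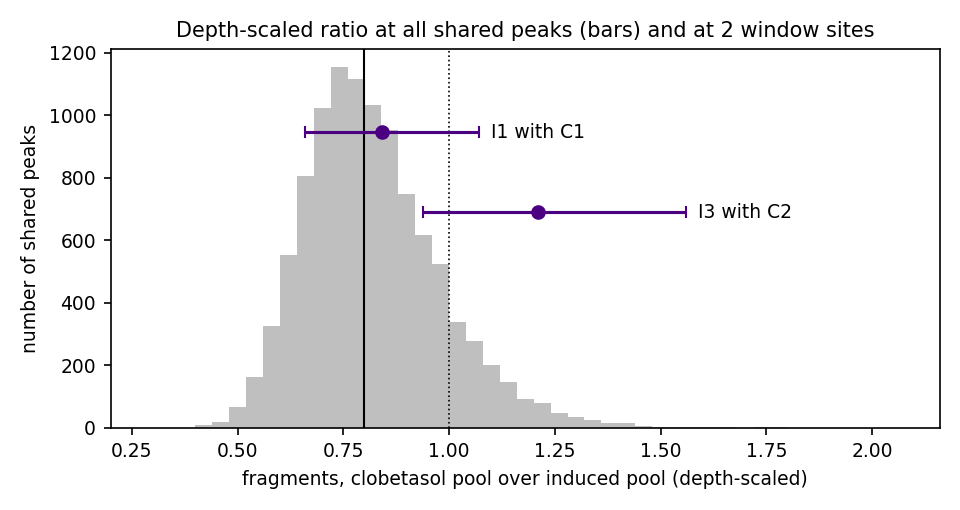
Number of shared peaks (vertical axis) by the depth-scaled ratio of fragments in the clobetasol pool to the induced pool (horizontal axis). Points with exact 95% binomial intervals are I1 with C1 and I3 with C2 at arbitrary height, the solid line is the median of all pairs, 0.799, and the dotted line is 1; 2 pairs lie off the axis.

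I4 and I5 had no peak with clobetasol. In the clobetasol list C2 is numbered 9245 and the next peak, 119226 bp further on, is 9246, so no number was skipped between them. Before C1, 2 numbers are missing over the 182066 bp since the previous listed clobetasol peak, a stretch that reaches into the window. In the induced list 1 number is missing between I3 and I4 and 1 between I4 and I5, and what those numbers were given to is not recorded. Missing numbers are common, since numbers reached 52393 for the induced pool and 26677 with clobetasol.

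Most induced peaks of that strength had no overlapping clobetasol peak, and the reason was not tested. Of the 1098 induced peaks with a −log10 q from 6 to 7, the range of I4 and I5, 25.1% had a clobetasol peak (95% Wilson interval 22.7 to 27.8), and of the 6138 at 20 or more 94.5% had one. With the same control level, I4 would have needed 32 fragments in the clobetasol pool to reach the lowest −log10 p of that list, 8.12, and I5 would have needed 30. An equal pileup at the greater depth would have given 36 and 34, and the median ratio of all pairs 29 and 27. At 29 and 27 fragments the −log10 p would have been 6.78 and 6.91. With induced counts of 30 and 28, the listing limit places the ratios of I4 and I5 below about 0.878 and 0.882. These are upper bounds only, and they carry no counting error. The limit at the depth of the induced pool, 26.3 and 24.7 fragments, lay inside the intervals of those counts (20.2 to 42.8 and 18.6 to 40.5). A lower level with clobetasol at I4 and I5 therefore cannot be told from an equal one. No call number was skipped between C2 and the next clobetasol peak, so the ratios could lie lower, by an amount that is not known. The median ratio of 0.799 is also below these bounds. It covers only sites listed in both pools and does not describe sites that dropped out.

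For comparison of peak numbers with other regions, chromosomes 1 to 22 and X were laid out in 20212 fixed windows of the same length. Of these, 3.1% held 5 or more induced peaks and 14.2% held 2 or more clobetasol peaks. The means were 0.796 and 0.603 peaks per window. As the region was picked for its peaks, nothing is read from these shares.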

How the data were processed

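EGR1 ChIP-seq was made from 9 libraries in 3 groups. Per the submitters' processing notes, the build was hg19 and the tools included MACS2 2.1.1.20160309, which the series text names as the peak caller, besides BWA, cutadapt 1.15, SAMtools 1.3.1, bcl2fastq and FastQC 0.11.5. No setting of these tools is given in the labels. The authors deposited 2 peak lists, called on pools per the peak names in the files, with a fold (ratio of treated pileup plus 1 to control level plus 1), −log10 p, −log10 q, a score and the distance of the summit from the peak's start. The lowest deposited −log10 q was 5.00228 in the induced and 5.00012 in the clobetasol list.

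Treated fragments and control levels were solved from the fold and a Poisson tail p, a step tested on simulated data. They came out whole (within 0.05) for 99.5% of peaks in each list. The spacing on which control levels clustered was 0.552 in the induced and 0.67 in the clobetasol list, and the ratio of these was taken as the depth ratio. In the window, levels were multiples of it at I1, I3, C1 and C2, but not at I2, I4 and I5. Peaks overlapping by at least 1 bp were shared, and mutual nearest summits were paired. Intervals are exact binomial, exact Poisson or Wilson. No test was run, since each group is 1 pool. Every window peak was described. The members and lists were chosen with earlier results of these data known. Python 3.11.15, numpy 2.4.6, pandas 2.3.3 and scipy 1.17.1 were used.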

Additional observations from a re-analysis of the deposited data

How the results depend on the processing

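With 1 pool per group these are limits of a description. Of 57 alternative values over 15 results, 25 moved. The other 32 were counts within 1.5 times, unchanged medians and widths, or shares and single-site ratios inside the 95% interval, which is wide for so few peaks: the share of clobetasol peaks overlapping an induced peak fell from 100% to 50% at a −log10 q of 20 or more and with 50% reciprocal overlap, and that of induced peaks from 60% to 40% with summits within 100 bp. With only peaks whose −log10 q reached 10, and with both lists cut to the same number of peaks, 3 induced peaks were left (1168 bp, median width 392 bp) and 100% overlapped a clobetasol peak, since I4 and I5 drop out. At 20 or more only I1 was left of the induced peaks (1 peak, 392 bp, fold 5.31, 100% overlapping, ratio 0.841). Requiring 50% of each peak to overlap kept 20.0% of induced peaks as shared, because C2 is far wider than I2 and I3. Widening the window by 50 kb on each side gave 3074 bp of induced peaks (median width 392 bp, median fold 3.59) and 3258 bp of clobetasol peaks (median width 395 bp, median fold 3.34), with a median ratio of 0.841 over 3 pairs. Without depth scaling the median ratio of the 2 pairs was 1.24 and that of the excess 1.28. Centred on the median of all pairs, an alternative added after seeing the data, the ratio was 1.28. No paired analysis was possible because the lists are of pools and carry no replicate. Depth limits I4 and I5 most, with 30 and 28 fragments.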
